A study of Mus musculus with 6 samples.

Results

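The NRF2 pathway and the antioxidant enzymes around it were described in CD8+ T cells, the killer lymphocytes, taken from mouse spleen. The 47 genes were chosen by name: NRF2, its inhibitor and partners, its targets, and the thioredoxin, peroxiredoxin and glutathione enzymes. Of these, 40 were among the 11175 genes with expression values, and all 40 passed the filter of a mean of at least 1 FPKM (fragments normalised to transcript length and to the size of the library). Nqo1, Osgin1, Gsta4, Me1, Cbr3, Blvrb and Pir were not analysed here.

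The cells carried the genotype labelled WT and were activated for 48 h with antibodies to CD3, which belongs to the antigen receptor, and to CD28, a costimulatory receptor. The 3 control libraries came from cells without further treatment. The 3 DOPAC libraries came from cells given DOPAC, a catechol acid formed when dopamine is broken down. Dose, animal and culture are not stated, so the p-values cover the spread between these libraries alone, which may be technical, and in such bulk RNA fewer cells of a type and less RNA per cell cannot be told apart.

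NRF2, encoded by Nfe2l2, is a transcription factor that KEAP1 holds in the cytoplasm and hands to the proteasome. Electrophiles, among them quinones formed when catechols oxidise, modify cysteines of KEAP1, after which NRF2 accumulates, pairs with small MAF proteins and binds antioxidant response elements, while BACH1 competes for the same sites. Activation is controlled mainly at the protein level, so the transcript of Nfe2l2 need not follow it. In activated T cells the thioredoxin and glutathione systems supply reducing power for DNA synthesis and remove peroxide.

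The core of the antioxidant response element, TGACNNNGC on either strand, was searched in the 250 bases before each RefSeq transcription start (GRCm38.p6). Windows were found for 34 of the 40 genes, and 10 of these 34 held the core (29.4%), against 11.5% of all 27025 genes with a window. The 10 were Nfe2l2, Mafg, Mafk, Ugdh, Gclm, Abcc4, Txnrd1, G6pdx, Prdx1 and Sod1. A match describes these letters only and is neither a binding site nor a cause. The first 3 windows below belong to genes with the core whose 3 DOPAC values all lay above the 3 controls, which held for 3 of the 10. It also held for 4 of the 24 genes whose windows lacked the core, and for 12.4% of all genes compared. The last 3 windows belong to genes with the core whose groups overlapped with all 6 libraries. Capitals mark the core, which in Prdx1 overlaps one of 2 matches to the AP-1 site TGANTCA.
Nfe2l2, chr2:75704664-75704913, minus strand: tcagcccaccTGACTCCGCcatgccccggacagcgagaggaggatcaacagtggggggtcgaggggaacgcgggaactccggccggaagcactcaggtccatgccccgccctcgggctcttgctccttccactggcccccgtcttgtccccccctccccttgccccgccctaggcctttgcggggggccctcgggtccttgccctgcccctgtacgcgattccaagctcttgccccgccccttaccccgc
Ugdh, chr5:65435843-65436092, minus strand: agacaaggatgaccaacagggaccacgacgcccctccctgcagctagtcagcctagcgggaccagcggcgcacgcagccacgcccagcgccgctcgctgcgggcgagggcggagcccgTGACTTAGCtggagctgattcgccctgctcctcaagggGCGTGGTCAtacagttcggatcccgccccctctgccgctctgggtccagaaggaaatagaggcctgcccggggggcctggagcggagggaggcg
G6pdx, chrX:74428881-74429130, minus strand: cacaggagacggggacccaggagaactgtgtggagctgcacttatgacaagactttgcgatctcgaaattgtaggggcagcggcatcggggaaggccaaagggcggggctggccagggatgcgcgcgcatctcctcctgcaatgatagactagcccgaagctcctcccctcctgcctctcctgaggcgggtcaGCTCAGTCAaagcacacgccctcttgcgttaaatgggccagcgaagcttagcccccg
Gclm, chr3:122245307-122245556, plus strand: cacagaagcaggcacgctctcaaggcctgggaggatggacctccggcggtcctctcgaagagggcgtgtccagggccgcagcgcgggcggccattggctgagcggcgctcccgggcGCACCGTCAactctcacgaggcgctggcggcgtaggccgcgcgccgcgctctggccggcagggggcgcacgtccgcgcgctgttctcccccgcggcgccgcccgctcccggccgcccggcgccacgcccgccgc
Txnrd1, chr10:82858956-82859205, plus strand: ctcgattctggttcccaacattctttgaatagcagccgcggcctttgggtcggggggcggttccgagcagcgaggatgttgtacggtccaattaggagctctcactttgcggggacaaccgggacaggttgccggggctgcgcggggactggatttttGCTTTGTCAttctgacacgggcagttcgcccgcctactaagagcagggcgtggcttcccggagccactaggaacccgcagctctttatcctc
Prdx1, chr4:116685349-116685598, plus strand: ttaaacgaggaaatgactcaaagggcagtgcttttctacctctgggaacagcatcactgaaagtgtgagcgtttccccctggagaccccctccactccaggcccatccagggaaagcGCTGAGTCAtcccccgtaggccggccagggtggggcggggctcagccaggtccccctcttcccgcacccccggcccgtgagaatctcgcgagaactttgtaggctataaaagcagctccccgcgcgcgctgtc

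Txnip, the gene with the smallest p among the 40, had no such core in its window. The gene encodes an arrestin-like protein that binds thioredoxin and restrains glucose uptake, and its transcription is known to respond to sugar phosphates through MondoA and ChREBP at a carbohydrate response element. The E-box CACGTG was searched first and had no match in the Txnip window, against a match in 6.86% of the 27025 genes. After the Txnip sequence had been read, a form of the element was chosen that it holds, 2 copies of CACGNG with 5 bases between them. This form occurred on either strand in the windows of 14 of the 27025 genes, and because it was picked to match Txnip, its presence there is no finding. In this window capitals mark the match, which begins 85 bases before the start.
Txnip, chr3:96557707-96557956, plus strand: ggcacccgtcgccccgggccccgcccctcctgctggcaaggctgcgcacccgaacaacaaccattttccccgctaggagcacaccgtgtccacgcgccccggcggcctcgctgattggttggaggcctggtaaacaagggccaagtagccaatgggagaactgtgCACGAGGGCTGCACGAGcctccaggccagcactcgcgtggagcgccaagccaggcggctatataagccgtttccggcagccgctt

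The 40 transcripts covered a wide range of levels. Txn1, thioredoxin, was the highest with a mean of 225 FPKM over the 6 libraries, followed by the peroxiredoxin Prdx1 (97.0 FPKM), the pentose phosphate enzyme Tkt (86.1 FPKM) and the mitochondrial peroxiredoxin Prdx3 (81.4 FPKM). These 4 made up 42.2% of the summed FPKM of the 40. Glrx2, a mitochondrial glutaredoxin, was the lowest (1.26 FPKM), with Srxn1 (1.77 FPKM) and Bach1 (1.86 FPKM) just above it. In all, 28 of the 40 lay above the median level of the 10887 genes compared.

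**Figure D1:**
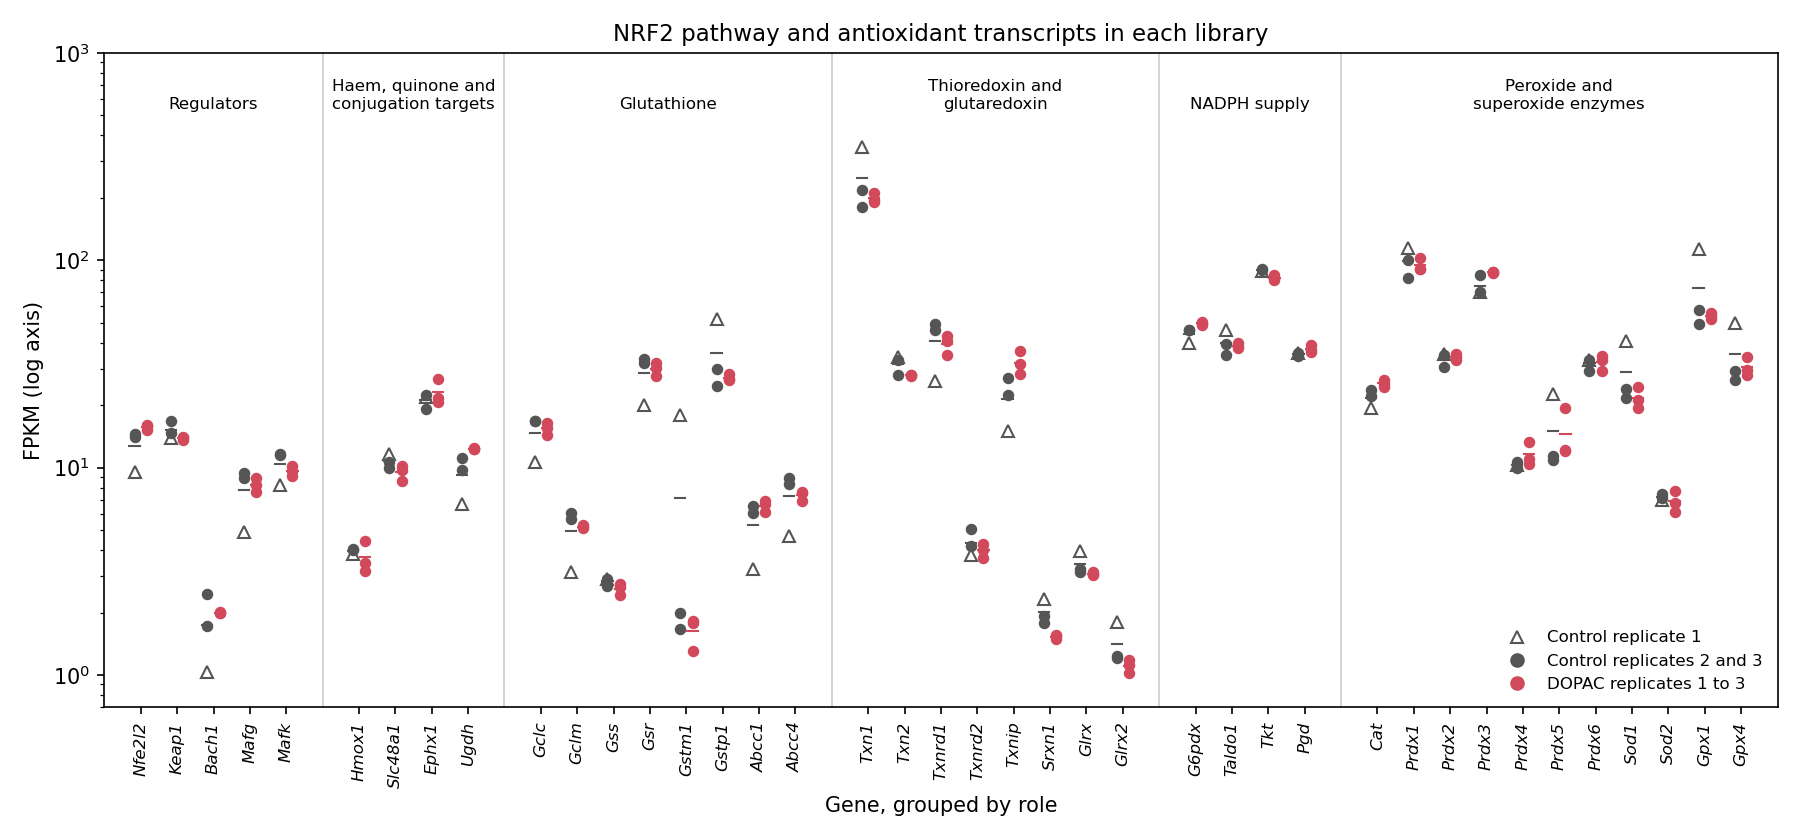
FPKM of each of the 40 genes in each of the 6 libraries on a log axis, grouped by role. Points are single libraries, the open triangle is control replicate 1, and short lines are group means. The triangle lies far above the other points for Gstm1, Gpx1 and Txn1 and far below them for Txnrd1, Gclm and Abcc1.

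One library stood apart from the rest. Control replicate 1 correlated with the other 5 libraries at a Pearson's r of 0.899 to 0.917 across genes on log2(FPKM + 1), whereas those 5 reached 0.974 to 0.992 among themselves. Of the 40 genes, 15 had their highest value and 15 their lowest value in it. The 40 genes took 0.438% of the summed FPKM there and 0.365% to 0.399% in the other 5 libraries. Without Txn1, Gpx1 and Prdx1, which carried this excess, the shares were 0.252% there and 0.248% to 0.270% elsewhere. The depth behind these values is unknown because FPKM hold no read counts. Fold changes are for all 6 libraries unless stated, and values without this library are given where they differ in sign or by over 1.5 times, and for the genes the results turn on.

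Its deviation was highest in short transcripts. In the 8 of the 40 genes with a summed exon length up to 2000 bp, its median log2 deviation from the mean of the remaining 5 was 0.78, and 5 of the 8 had their highest value there. In the 15 genes of 2000 to 4000 bp the median deviation was -0.09, with 7 highest and 7 lowest there, and in the 17 genes above 4000 bp it was -0.06, with 3 highest and 7 lowest. The 40 genes thus showed no fall from the middle to the long class, whereas the medians of all genes were 0.34, -0.12 and -0.51 in the 3 classes. Across the 40 genes Pearson's r between this deviation and log10 exon length was -0.53, and it was -0.52 across 10802 genes. Genes are not independent replicates, and all points share the same library.

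**Figure D2:**
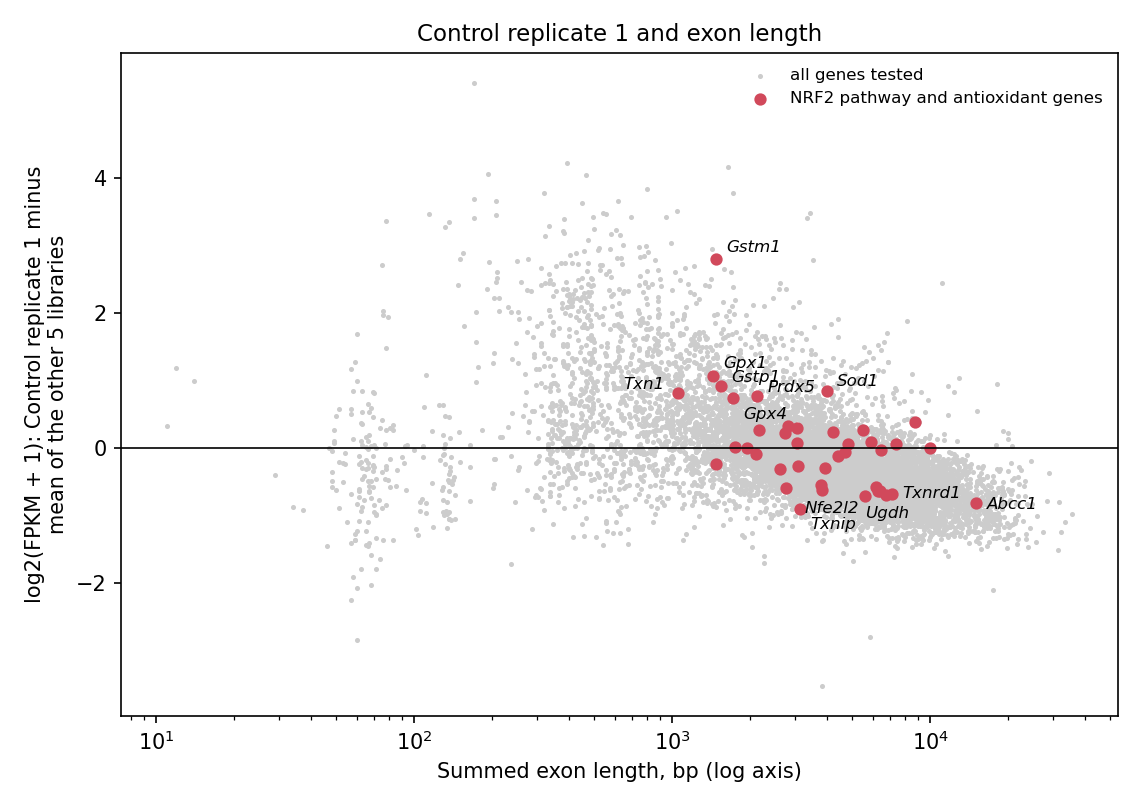
Deviation of control replicate 1 from the mean of the other 5 libraries (log2(FPKM + 1)) against summed exon length on a log axis, for the 10802 genes with a known length (grey) and the 40 genes described (red). Short antioxidant transcripts such as Gstm1 (2.80), Gpx1 (1.07) and Txn1 (0.82) lie above 0, and longer ones such as Txnrd1 (-0.68) and Abcc1 (-0.81) below it.

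No gene of the pathway passed the test for a difference between DOPAC and control. With limma's moderated test, 0 of the 40 had a Benjamini-Hochberg adjusted p under 0.05 (background 0%, 0 of 10887 genes), with 0.801 as the lowest. Txnip was the 1 of 40 with an unadjusted p under 0.05, where all genes gave 4.19%. The authors' deposited table likewise had 1 of the 40 at an unadjusted p under 0.05, with a lowest adjusted p of 0.801. The fold changes were positive in 20 and negative in 20, with a median of -0.018, beside 0.066 for all genes. Of all genes, 62.1% were positive. The groups did not overlap in 11 of the 40, 7 higher and 4 lower with DOPAC, where all genes gave 12.4% higher and 4.8% lower. Without control replicate 1 again 0 of the 40 passed (background 0.0184%), the lowest adjusted p was 0.297, and 12 of the 40 changed sign. Then 18 of the 40 were positive and 22 negative, beside 47.3% positive among all genes. In that fit 2 higher and 3 lower genes had an unadjusted p under 0.05, where all genes gave 5.57% and 8.89%. The groups did not overlap in 8 higher and 11 lower genes, where all genes gave 15.3% and 21.5%.

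The intervals describe how uncertain each estimate was, from the spread between these libraries alone, and set no bound beyond them. A log2 fold change is given on the log2(FPKM + 1) scale, which understates changes of low genes, and its 95% interval is that of the limma model, not adjusted for the number of genes. In 37 of the 40 genes the interval lay between -1 and 1, the exceptions being Gstm1, Txnip and Gpx1. It lay between -0.5 and 0.5 in 18 of the 40, and among the 22 outside were Nfe2l2, Gclc, Gclm, Gsr and Txnrd1. Without control replicate 1 it lay between -1 and 1 in 40 of 40, and between -0.5 and 0.5 in 37, with Txnrd1, Txnip and Prdx5 outside. The median half-width of the interval was 0.36 with 6 libraries and 0.22 with 5. Control replicate 1 was left out because it stood apart in these data, which by itself narrows the intervals.

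**Figure D3:**
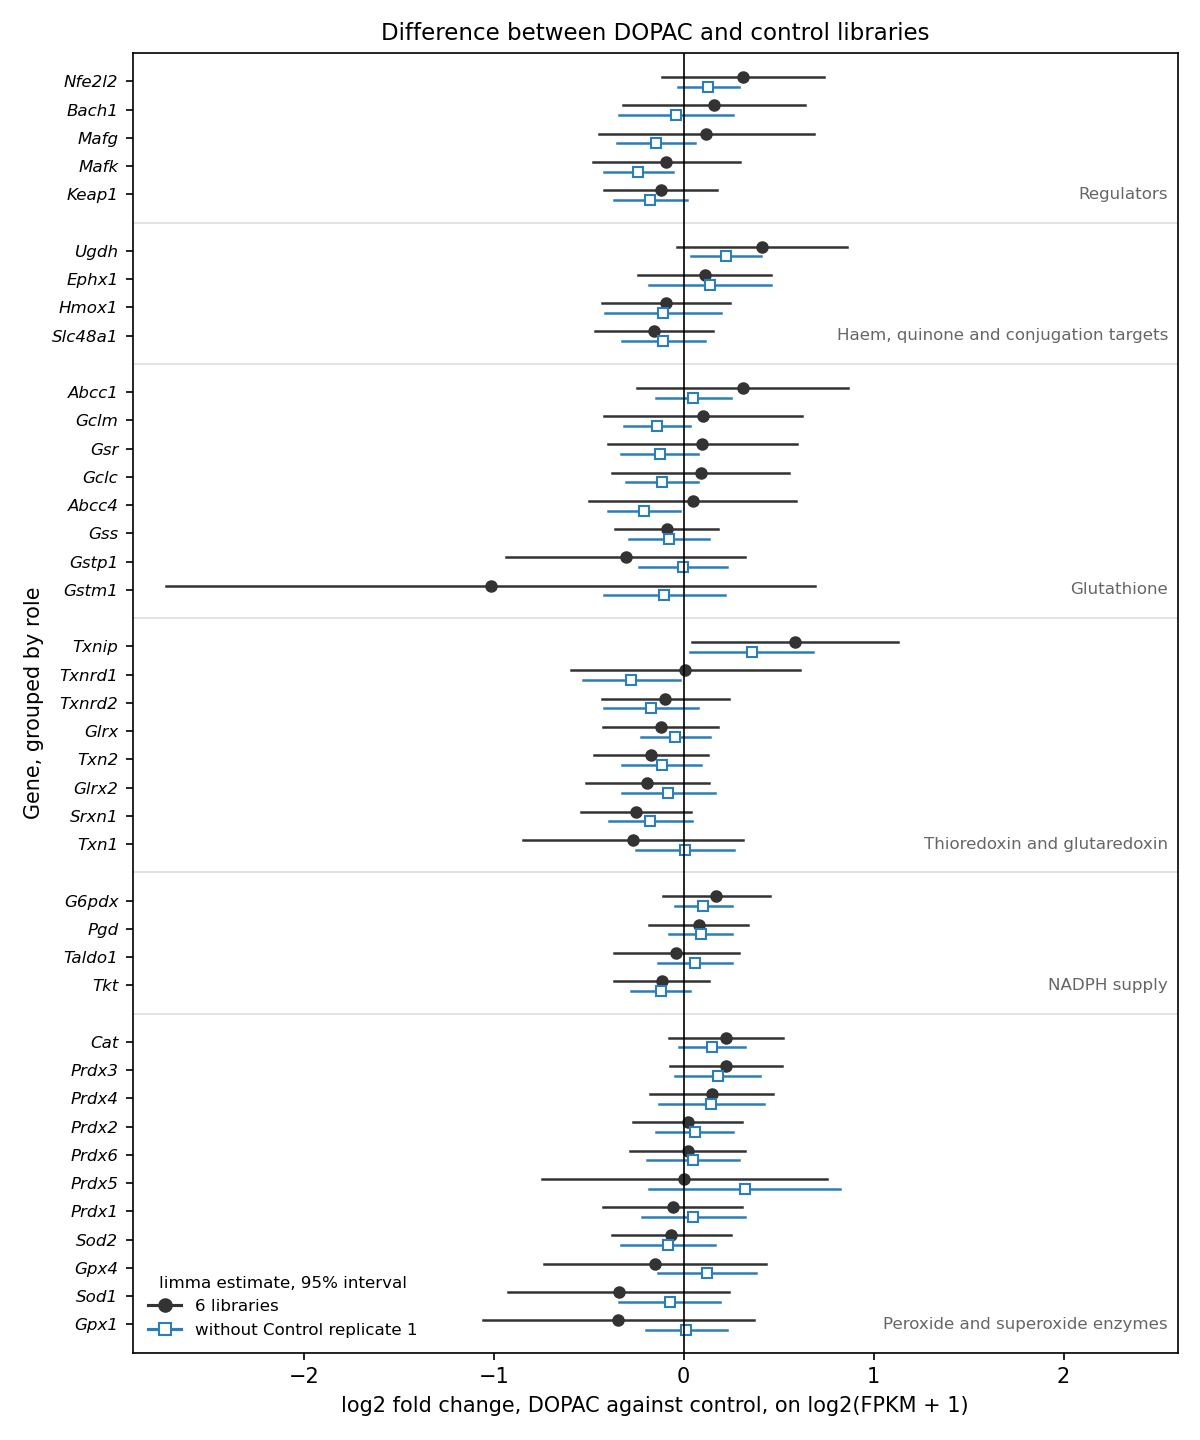
Log2 fold change of DOPAC against control for the 40 genes, grouped by role, with 95% intervals of the limma model. Filled circles use all 6 libraries and open squares leave out control replicate 1. With 6 libraries the interval of Txnip alone lies above 0, and with 5 those of Txnip and Ugdh do, while those of Mafk, Abcc4 and Txnrd1 lie below 0.

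Among the regulators, the transcript of NRF2 itself had slightly higher values with DOPAC. Nfe2l2 (chromosome 2, 75675513 to 75704641, GENCODE M21 on GRCm38) measured 9.49, 14.0 and 14.6 FPKM in control replicates 1, 2 and 3, and 15.9, 15.2 and 16.1 FPKM with DOPAC. The groups did not overlap, but most of the gap came from control replicate 1, the lowest of the 6. Its log2 fold change of 0.31 (95% interval -0.12 to 0.74; limma adjusted p = 0.801) shrank to 0.13 without that library (-0.03 to 0.29).

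Keap1, whose protein targets NRF2 for degradation, measured 14.0, 16.8 and 14.8 FPKM in the controls and 14.0, 13.9 and 13.5 FPKM with DOPAC. Control replicate 1 lay within the DOPAC range, and the other controls lay above it. Its log2 fold change was -0.12 (-0.42 to 0.18). Bach1, the repressor that competes with NRF2, measured 1.03, 2.46 and 1.73 FPKM in the controls and 1.98, 1.98 and 2.00 FPKM with DOPAC, so the controls enclosed all 3 DOPAC values. The small MAF genes Mafg and Mafk had log2 fold changes of 0.12 and -0.09. Without control replicate 1, Bach1 went from 0.16 to -0.04 and Mafg to -0.15, 4 of the 5 regulators were negative, and the interval of Mafk lay below 0 at -0.24 (-0.42 to -0.06; limma adjusted p = 0.297), the lowest adjusted p of the 40 in that fit. Nfe2l2 alone of the 5 was positive in both fits.

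Of the targets of NRF2 in haem breakdown and conjugation, 4 were measured and their groups overlapped in 3. Over all genes 17.2% did not overlap. Hmox1, heme oxygenase, measured 3.85, 3.99 and 4.07 FPKM in the controls and 4.42, 3.18 and 3.46 FPKM with DOPAC, with a log2 fold change of -0.09 (-0.43 to 0.24). Its highest and lowest values were both in DOPAC libraries. Slc48a1, which moves haem out of endosomes, measured 11.6, 9.92 and 10.7 FPKM in the controls and 10.1, 8.60 and 9.78 FPKM with DOPAC, a log2 fold change of -0.16 (-0.47 to 0.15). Ephx1, the microsomal epoxide hydrolase, measured 21.9, 22.5 and 19.1 FPKM in the controls and 20.7, 26.7 and 21.7 FPKM with DOPAC, a log2 fold change of 0.11 (-0.24 to 0.46).

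Ugdh was the exception in this group. It encodes the dehydrogenase that makes UDP-glucuronate for glucuronidation, and its window above held the core at 2 places. It lies on chromosome 5 at 65413221 to 65435949 and measured 6.70, 11.1 and 9.79 FPKM in the controls and 12.3, 12.5 and 12.3 FPKM with DOPAC. All 3 DOPAC libraries lay above the controls and close together. Its log2 fold change was 0.41 (-0.03 to 0.86; limma adjusted p = 0.801) with 6 libraries and 0.22 without control replicate 1 (0.04 to 0.41; adjusted p = 0.313).

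Hmox1 is abundant in macrophages and several antioxidant transcripts in red cell precursors, so markers of other spleen cells are set beside these values. The macrophage and monocyte markers with values (3 of 10: Lyz2, Cd68 and C1qb) summed to 15.4 to 35.2 FPKM in the controls and 4.77 to 13.0 FPKM with DOPAC. The erythroid markers (2 of 7, both globins) summed to 2.72 to 10.4 and 0.280 to 3.02 FPKM, and the stromal markers (5 of 5) to 43.2 to 47.5 and 6.78 to 29.5 FPKM. Of the stromal markers, Col1a1, Col1a2, Col3a1 and Sparc were lower in all 3 DOPAC libraries. Pecam1 overlapped, at 3.89 to 6.98 and 5.53 to 6.33 FPKM. In DOPAC replicate 1, Pecam1 (6.14 FPKM) made up most of the stromal sum. The CD8 T cell markers (6 of 6) summed to 1304 to 1459 and 1436 to 2004 FPKM. The higher sum with DOPAC came from Gzmb, granzyme B, at 535 to 694 and 673 to 1248 FPKM, while the other 5 summed to 764 to 778 and 698 to 762 FPKM. The B cell markers (2 of 5) summed to 145 to 156 and 127 to 155 FPKM, nearly all of it Ighm. Of the NK cell markers 1 of 3 had values, Nkg7, at 137 to 172 and 127 to 141 FPKM. No marker with a value was at 0 in every library, and 0 of 3 CD4 T cell, 0 of 4 neutrophil and 0 of 4 dendritic cell markers had values here. Their part in the antioxidant transcripts was not tested.

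In the glutathione genes the groups overlapped in 8 of 8 with 6 libraries, where 17.2% of all genes did not overlap. The sign of 4 fold changes (Gclc, Gclm, Gsr and Abcc4) turned on control replicate 1. Without it, all DOPAC values lay below the controls in 3 of the 8 (Gclc, Gclm and Abcc4) and above them in 0. All genes gave 21.5% lower and 15.3% higher there. Of the 8 measured, 5 were positive and 3 negative with 6 libraries, and 1 positive and 7 negative without control replicate 1. Among all genes 62.1% and 47.3% were positive in these fits. Gclc and Gclm, the subunits of the rate-limiting ligase of glutathione synthesis, had log2 fold changes of 0.09 (-0.38 to 0.56) and 0.10 (-0.42 to 0.62). These became -0.12 (-0.31 to 0.07) and -0.14 (-0.31 to 0.03) without that library. Gss, which adds glycine in the last step, had -0.09, and Gsr, which regenerates glutathione from its oxidised form, had 0.10, or -0.13 without control replicate 1.

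Gstm1, a glutathione transferase, was the most uneven of the 40. It measured 17.9 FPKM in control replicate 1, 1.66 and 1.98 FPKM in the other controls, and 1.79, 1.82 and 1.30 FPKM with DOPAC. Its log2 fold change of -1.02 (-2.72 to 0.69) became -0.10 (-0.42 to 0.22) without that library. Gstp1, another transferase, measured 52.0, 24.8 and 29.8 FPKM in the controls and 28.3, 26.4 and 26.7 FPKM with DOPAC, so that control replicate 1 alone stood off. Its log2 fold change was -0.31 with 6 libraries and -0.0035 without that one. Both have near-identical relatives, Gstm2-ps1 for Gstm1, and Gstp2 and Gstp-ps for Gstp1, and their reads are uncertain.

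The exporters Abcc1 and Abcc4 carry glutathione conjugates and organic anions out of the cell. Abcc1 measured 3.24, 6.56 and 6.02 FPKM in the controls and 6.14, 6.66 and 6.87 FPKM with DOPAC, a log2 fold change of 0.31 (-0.24 to 0.87), or 0.05 without control replicate 1. The groups overlapped, and the low value was again that library. Abcc4 had 0.05, and -0.21 (-0.40 to -0.02; limma adjusted p = 0.321) without it.

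In the thioredoxin system Txnip had higher values with DOPAC, and 6 of the 8 genes had negative fold changes. Among all genes 62.1% were positive. Txnip (chromosome 3, 96557957 to 96561883) measured 14.97, 27.2 and 22.4 FPKM in the controls and 36.4, 31.5 and 28.3 FPKM with DOPAC. The lowest DOPAC value exceeded the highest control narrowly, and control replicate 1 was the lowest of all. With limma its log2 fold change was 0.59 (0.04 to 1.13), at an adjusted p of 0.801. Without control replicate 1 it was 0.36 (0.04 to 0.68; adjusted p = 0.321). Reads of Txnip are uncertain because Gm15441 shares its sequence and overlaps its exons.

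Srxn1, sulfiredoxin, which repairs overoxidised peroxiredoxins and is a known NRF2 target, went the other way. It measured 2.33, 1.93 and 1.78 FPKM in the controls and 1.55, 1.54 and 1.49 FPKM with DOPAC. All 3 DOPAC values lay below all controls at this low level. Srxn1 had a log2 fold change of -0.25 (-0.54 to 0.04; limma adjusted p = 0.801), or -0.18 (-0.40 to 0.04) without control replicate 1. Its window held no match to TGACNNNGC and 2 matches to the AP-1 site. The match 45 bases before the start reads on as TGAGTCAGC, the core but for a G in place of the C of TGAC. The search thus does not show that Srxn1 lacks such an element.

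The glutaredoxins, which reduce proteins joined to glutathione, were also lower in all 3 DOPAC libraries. Glrx2 measured 1.80, 1.21 and 1.24 FPKM in the controls and 1.18, 1.12 and 1.02 FPKM with DOPAC, a log2 fold change of -0.19 (-0.51 to 0.13), or -0.08 without control replicate 1. Cytosolic Glrx had -0.12, or -0.04 without it, with 3.14 FPKM in its lowest control and 3.13 FPKM in its highest DOPAC library. These gaps were small beside the intervals.

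Thioredoxin reductase 1, Txnrd1, another established NRF2 target, measured 26.1, 46.3 and 49.5 FPKM in the controls and 34.8, 40.8 and 43.0 FPKM with DOPAC. The DOPAC values thus lay between control replicate 1 and the other controls. Txnrd1 had a log2 fold change of 0.01 (-0.60 to 0.61) with 6 libraries and -0.28 (-0.53 to -0.02; limma adjusted p = 0.328) without that library. Txn1 had -0.27 (-0.85 to 0.31) and 0.01 (-0.25 to 0.27) in the same fits, with 351 FPKM in control replicate 1 and 180 to 219 FPKM elsewhere. Mitochondrial Txn2 and its reductase Txnrd2 had -0.17 and -0.10, or -0.12 and -0.17 without control replicate 1.

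Enzymes that supply NADPH, the electron donor of both systems, had small differences, with opposite signs within the pentose phosphate pathway. G6pdx, which catalyses the first, oxidative step, measured 39.8, 46.1 and 46.1 FPKM in the controls and 50.5, 48.8 and 49.4 FPKM with DOPAC, all above the controls. Reads of G6pdx are uncertain because its exons overlap those of Ikbkg. G6pdx had a log2 fold change of 0.17 (-0.11 to 0.45), or 0.10 (-0.05 to 0.25) without control replicate 1. Pgd, the later oxidative enzyme, measured 35.8, 34.5 and 35.6 FPKM in the controls and 39.0, 36.9 and 36.2 FPKM with DOPAC, also without overlap, with a log2 fold change of 0.08 (-0.18 to 0.34) that turned to -0.05 with the length trend removed.

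Tkt, transketolase of the non-oxidative branch, measured 89.0, 89.3 and 90.4 FPKM in the controls and 80.5, 85.0 and 82.2 FPKM with DOPAC. Here control replicate 1 lay beside the other controls, and all 3 DOPAC libraries lay below them. Tkt had a log2 fold change of -0.12 (-0.37 to 0.13), and -0.12 (-0.28 to 0.04) without that library. Taldo1, transaldolase of the same branch, had -0.04, or 0.06 without it. None of the 4 passed the test (limma adjusted p = 0.801 at the lowest).

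Among the 11 enzymes that remove peroxide and superoxide, 6 were positive and 5 negative, and 9 were positive without control replicate 1. Of all genes, 62.1% and 47.3% were positive in these fits. Prdx3, the peroxiredoxin of the mitochondrial matrix (chromosome 19, 60864051 to 60874556), measured 70.4, 70.5 and 84.7 FPKM in the controls and 88.0, 87.0 and 87.6 FPKM with DOPAC. The DOPAC libraries were nearly equal and lay above all controls. The log2 fold change was 0.22 (-0.07 to 0.52), or 0.18 (-0.05 to 0.40) without control replicate 1.

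Cat, the catalase of peroxisomes, measured 19.5, 23.7 and 22.1 FPKM in the controls and 26.6, 25.4 and 24.5 FPKM with DOPAC, again without overlap. Cat had a log2 fold change of 0.22 (-0.08 to 0.53), or 0.15 (-0.03 to 0.32) without control replicate 1. Cat is also high in red cell precursors, whose globin sums are given above; their part in this value was not tested.

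Sod1, the cytosolic superoxide dismutase, measured 40.6, 21.8 and 23.9 FPKM in the controls and 24.4, 21.3 and 19.5 FPKM with DOPAC. Its log2 fold change of -0.34 (-0.93 to 0.24) became -0.07 (-0.34 to 0.19) without control replicate 1. The glutathione peroxidase Gpx1, with 114 FPKM in that library and 49.3 to 57.7 FPKM in the other 5, went from -0.34 to 0.01 in the same way. Gpx4, which reduces lipid peroxides in membranes, went from -0.15 to 0.12. In these 3 the high control value came from that library alone.

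The other peroxiredoxins differed by less than their intervals. Cytosolic Prdx1, Prdx2 and Prdx6 had log2 fold changes of -0.06, 0.02 and 0.02, or 0.05, 0.06 and 0.05 without control replicate 1, and Prdx4 of the endoplasmic reticulum had 0.15. Prdx5 had 0.00 (-0.75 to 0.75) and 0.32 (-0.18 to 0.82) without control replicate 1, with 22.5 FPKM in that library, 19.4 FPKM in DOPAC replicate 1 and 10.9 to 12.2 FPKM in the other 4. Its exons overlap those of Trmt112. Sod2, the mitochondrial superoxide dismutase, had -0.06 (-0.38 to 0.25).

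Genes with and without the antioxidant core in the window had fold changes of both signs. Among all genes 62.1% were positive with 6 libraries and 47.3% without control replicate 1. Of the 10 genes with the core, 7 and 4 were positive in these fits, with medians of 0.07 and -0.11. Without control replicate 1, all DOPAC values lay below the controls in Mafg, Mafk, Gclm, Abcc4 and Txnrd1, which hold the core. They lay above them in Nfe2l2, Ugdh and G6pdx. Over all genes, 21.5% lay below and 15.3% above in that comparison. Of the 24 genes whose windows lacked the core, 9 were positive with 6 libraries and 12 without control replicate 1, with medians of -0.09 and 0.00. Without that library, all DOPAC values lay below the controls in Keap1, Srxn1, Glrx, Glrx2 and Tkt. They lay above them in Txnip, Pgd, Cat, Prdx3 and Prdx5. These 24 include Srxn1 and Gstp1, whose windows hold TGAGTCAGC, the core but for a G in place of the C of TGAC. The split therefore holds for the searched letters only. Windows of 6 genes (Hmox1, Slc48a1, Gclc, Gsr, Abcc1 and Prdx6) were not analysed here.

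Other genes of the pathway, a list of 60 that holds further KEAP1 and MAF partners, glutathione transferases, thioredoxin-like proteins and ferritin, had values above the filter for 46. With limma 0 of the 46 passed (lowest adjusted p = 0.801; background 0%), and 3 higher and 0 lower had an unadjusted p under 0.05, where all genes gave 2.73% and 1.46%. The log2 fold change was positive in 26 and negative in 20, with a median of 0.02, beside 62.1% positive among all genes. The groups did not overlap in 5 higher and 1 lower of the 46, where all genes gave 12.4% and 4.8%. Without control replicate 1 again 0 passed (lowest adjusted p = 0.295), the median was 0.03, and 3 higher (Gstt1, Sesn2 and Tmx1) and 2 lower (Bach2 and Sesn3) had an unadjusted p under 0.05, where all genes gave 5.57% and 8.89%. The 4 with the smallest p were Gstt1, a glutathione transferase, at a log2 fold change of 0.46, Chac2, which degrades glutathione, at 0.42, Sesn2, a stress-induced sestrin, at 0.33, and Tmx1, a thioredoxin-related protein of the endoplasmic reticulum, at 0.43. Without that library Gstt1 had 0.52, Chac2 0.31, Sesn2 0.28 and Tmx1 0.22, so that the value of Tmx1 fell the most. Tmx1 (interval 0.07 to 0.37) nevertheless had the lowest adjusted p of the 46 in that fit (limma adjusted p = 0.295). Its groups did not overlap with or without control replicate 1, while those of Chac2 overlapped in both cases. Sesn2 measured 5.05, 5.90 and 5.63 FPKM in the controls and 6.48, 6.997 and 8.26 FPKM with DOPAC, without overlap. Gstt1 measured 2.00, 1.54 and 1.81 FPKM in the controls and 3.89, 2.43 and 2.34 FPKM with DOPAC, also without overlap, and DOPAC replicate 1 was the highest.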

How the data were processed

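RNA from 6 libraries was made into full-length cDNA (SMART-Seq HT) and paired-end libraries (Nextera XT), per the labels' protocols; these kits do not mark strand, so reads of overlapping genes cannot be told apart. The submitters' processing notes name cutadapt 1.9, HISAT2 2.2.1 and mm10. How FPKM were estimated, with which annotation release and gene filter, is not given in the sources used here. The authors deposited FPKM per gene and library, with their own log2 fold change, p-value and adjusted p-value, per the file headers; the former matched a recomputed difference of mean log2(FPKM + 1) to within 1.0e-09. All 6 columns were used, and the depth is unknown.

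R 4.3.3 with limma 3.58.1 compared DOPAC with control on log2(FPKM + 1), modelling the trend of variance with level, over the 10887 genes with a mean of at least 1 FPKM, with Benjamini-Hochberg adjustment over all of them and a threshold of 0.05. The fit was tested on simulated data. The genes and lists were chosen with earlier results of these data known. Every gene was named, and values per library were given for Nfe2l2, Keap1, Bach1 and the 3 genes with the smallest p in each role, and otherwise for genes chosen after their values were seen (Hmox1, Glrx, Txnrd1, Txn1, Gpx1, Prdx5, Gstt1 and Sesn2). Nnt, with 2 rows of the same symbol, was left out of the pathway list.

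Both groups carry the numbers 1 to 3. Deviations of same-numbered libraries from their group means correlated across genes at 0.34, 0.16 and 0.28, each above 0.1. Differently numbered ones reached 0.24 (control 2 with DOPAC 3) and 0.19 (control 3 with DOPAC 2, above the 0.16 of the same number). The other 4 were negative. Control replicate 1 held 50.6% of the summed squared deviations, so these correlations do not settle whether the numbers pair the libraries. No label ties the numbers to an animal or a date. The fits above therefore did not pair the libraries, and a replicate block was run as an alternative. The alternatives were a replicate block, a pseudocount of 0.1, a minimum of 5 FPKM or none, equal medians, quantile normalization, a removed length trend and each library left out. Positions, exon lengths and overlaps came from GENCODE M21 (GRCm38, equal to mm10). Near-identical genes shared at least 300 bases at 95% identity (BLAST+ 2.17.0) and touched 9 of the 40 genes. These were Txn1, Txnip, Gstm1, Gstp1, Prdx1, Prdx2, Prdx5, Sod1 and Gpx4. Exons of 9 overlapped another gene with values, namely Keap1, Mafg, Gclm, Gss, Txnrd2, G6pdx, Prdx2, Prdx5 and Slc48a1. Reads of all of these are uncertain. Promoter windows came from RefSeq on GRCm38.p6. Plots were made in Python 3.11.15 with matplotlib 3.10.9.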

Additional observations from a re-analysis of the deposited data

How the results depend on the processing

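In every alternative run 0 of the 40 genes passed the threshold, the replicate block included (0 genes, lowest limma adjusted p 0.698), and the block changed no call. Over all genes the count past the threshold was 0 in every alternative except without control replicate 1, so that leaving out 1 library gave 0 to 2; the 2 were Spp1 and Gm49510, named after their values were seen, and neither is among the 40. The median log2 fold change of the 40 was -0.018, 0.021 with a filter of 5 FPKM, which left 32 of them, -0.076 with equal medians and -0.074 with the length trend removed, and -0.044 to -0.0067 leaving out 1 library. Of the 44 genes named from the lists, 27 kept their sign in every alternative (23 of the 40). Signs turned to -0.0083 (Abcc4), -0.024 (Txnrd1) and -0.021 (Prdx5) with quantile normalization. With equal medians they turned to -0.012 (Abcc4), -0.051 (Txnrd1), -0.056 (Prdx5), -0.038 (Prdx2) and -0.038 (Prdx6). With the length trend removed they turned to -0.078 (Abcc4), -0.13 (Txnrd1), -0.0081 (Prdx2), -0.071 (Prdx6), -0.022 (Gclm) and -0.046 (Pgd). Leaving out 1 library gave ranges that cross 0: -0.21 to 0.19 for Abcc4, -0.28 to 0.17 for Txnrd1, -0.21 to 0.32 for Prdx5, -0.047 to 0.057 for Prdx2, -0.040 to 0.086 for Prdx6, -0.14 to 0.24 for Gclm, -0.040 to 0.35 for Bach1, -0.15 to 0.27 for Mafg, -0.12 to 0.19 for Gclc, -0.13 to 0.23 for Gsr, -0.47 to 0.0072 for Txn1, -0.13 to 0.061 for Taldo1, -0.18 to 0.050 for Prdx1, -0.58 to 0.015 for Gpx1, -0.32 to 0.12 for Gpx4 and -0.14 to 0.0048 for Sod2. The cause of these turns was not tested. The unknown depth of the libraries limits what can be said of low genes such as Glrx2, Srxn1 and Bach1.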
